A study of Mustela putorius furo and Mus musculus with 4 samples.

Results

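Macroautophagy carries cytoplasm to the lysosome inside a double membrane, the autophagosome, and the genes that build and deliver it were compared between cultured ferret and mouse astrocytes. The members were chosen by function, as 42 named genes of the core machinery, from the kinase complex that starts a membrane to the tethers that fuse it with a lysosome. Of these, 36 had a gene symbol in the values of both species, out of 13373 shared symbols, and are described here. Ulk2, Pik3r4, Atg3, Atg9a and Wdr45 had a mouse value only among the data used here, and 1 more member was not analysed here.

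The RNA came from 2 libraries of ferret astrocytes and 2 of mouse astrocytes. Ferret cortices were taken on postnatal day 1 from pigmented sable animals, and mouse cortices on postnatal days 1 to 3 from wild-type ICR animals. No transgene is named for the cultures of either species, and no drug apart from the supplements of the medium given below. Mouse pups were pooled for a culture flask, and ferret pups were not. Cells of both species were grown as mixed glia for 14 days in medium with 10% fetal bovine serum, shaken to remove loosely attached cells and replated. On day 3 after plating a serum-free medium was given, and the RNA was taken on day 7. It held HB-EGF, transferrin, progesterone, N-acetyl cysteine, penicillin, streptomycin and other supplements. The libraries were made in duplicate, and it is not stated in the sources used here if a duplicate stands for another culture, so the p-values below measure the spread between these libraries, which may be technical. Species, genome annotation and culture cannot be told apart in this design.

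Autophagosome formation begins when the ULK kinase complex is switched on, which nutrient and energy kinases control. A lipid kinase complex around Beclin 1 then marks the new membrane with phosphatidylinositol 3-phosphate (PI3P), lipid transfer proteins feed it, and a pair of ubiquitin-like conjugation systems attaches the small proteins of the ATG8 family (LC3 and GABARAP) to its lipid. SNARE proteins and tethers finally join the closed autophagosome to the lysosome. In astrocytes, as in other cells, this pathway removes damaged organelles and protein aggregates.

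Expression was given as FPKM, that is, fragments divided by exon length and by the mapped fragments of a library, and neither read counts nor sequencing depth were used here. Differences are ferret minus mouse on the log2(FPKM + 1) scale unless another scale is named, which understates the change of low genes, and were tested with limma over the 10204 genes whose mean reached 1 FPKM in either species. Calls needed both a Benjamini-Hochberg adjusted p below 0.05 and a log2 difference beyond 1 in either direction. The sum over the shared symbols was 227391 and 236543 FPKM in ferret, and 300465 and 308121 FPKM in mouse libraries, and the median log2 difference of all genes tested was -0.35, so the point of balance between the species lay below 0. With the libraries rescaled to the same sum that median was -0.0019, and the rescaled difference is given beside the deposited one for each core gene or regulator named below whose call changes. The 6 astrocyte markers summed to 1865 to 1892 FPKM in ferret and 1978 to 2122 FPKM in mouse libraries, with S100b called higher and Slc1a3, Aqp4 and Aldh1l1 called lower in ferret as deposited, Slc1a3 not after rescaling (-0.77). The 11 microglial markers in both species summed to 5.82 to 6.63 FPKM in the ferret libraries, with 8 of them under 1 FPKM and Cx3cr1 at 0 in both, and to 646 to 657 FPKM in the mouse libraries. The 6 fibroblast markers summed to 111 to 126 against 809 to 853 FPKM. Of 7 oligodendrocyte lineage markers listed, the 6 in both species summed to 81.0 to 87.4 against 10.3 to 12.2 FPKM, although Cspg4 was lower in ferret (-0.47). Of 6 neuronal markers listed, the 4 in both species summed to 24.7 in both ferret libraries against 31.9 to 33.1 FPKM. Among them Syt1 was called higher (1.46) and Map2 was lower (-0.68) in ferret. Markers without a ferret value here are left out of these sums. In the mouse libraries Olig1 had 107 and 117, Stmn2 124 and 127, and the microglial C1qa 193 and 193 FPKM. All 11 microglial and all 6 fibroblast markers were called lower in ferret cultures, and their part in the differences below was not tested. In bulk RNA, fewer cells of a type and less RNA per cell cannot be told apart.

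The 36 core genes in both species differed in mean FPKM by 7.72 times at most, for Atg16l2, which stayed under 1 FPKM in both ferret libraries. Of the 36 genes, 2 were called higher and 5 lower in ferret astrocytes. The genes called higher were Atg7 and Atg12, both of the conjugation systems. Those called lower were Becn1, Vmp1, Atg16l2, Atg4c and Map1lc3a. In the background of all genes tested, 13.1% were called higher and 30.1% lower, against 5.56% and 13.9% of the 36 core genes. By the adjusted p alone 14 core genes were higher, 15 were lower and 7 did not pass, where 88.6% of all genes tested passed, 32.4% as higher and 56.2% as lower. After rescaling 21 were higher and 12 lower by the adjusted p alone and 3 did not pass, where 88.3% of all genes passed, 44.3% as higher and 44.1% as lower. Both ferret libraries stood above both mouse libraries in 16 core genes, below them in 16, and the libraries overlapped in Ulk1, Atg14, Atg16l1 and Tecpr1. In the background, 35.1% of genes had the ferret libraries above and 59.0% the mouse libraries above.

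The median log2 difference of the 36 genes was 0.03, against -0.35 for all genes tested. Their median absolute difference was 0.57 on the log2 scale, against 0.85, and 19.4% of them exceeded 1 in either direction, against 43.3% of all genes tested. The differences ran from -2.05 to 2.01, within a range from -9.18 to 7.47 over all genes tested. Between duplicates the median absolute log2 difference of the core genes was 0.087 in ferret and 0.055 in mouse libraries. After rescaling 6 core genes were called higher and 2 lower, against a background of 19.3% and 21.7%. Wipi2, Atg10, Gabarapl2 and Epg5 then joined Atg7 and Atg12, while Atg16l2 and Map1lc3a were the genes still called lower. After quantile normalization 6 were called higher and 3 lower, Vmp1 being the third, against a background of 20.6% and 20.4%.

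**Figure D1:**
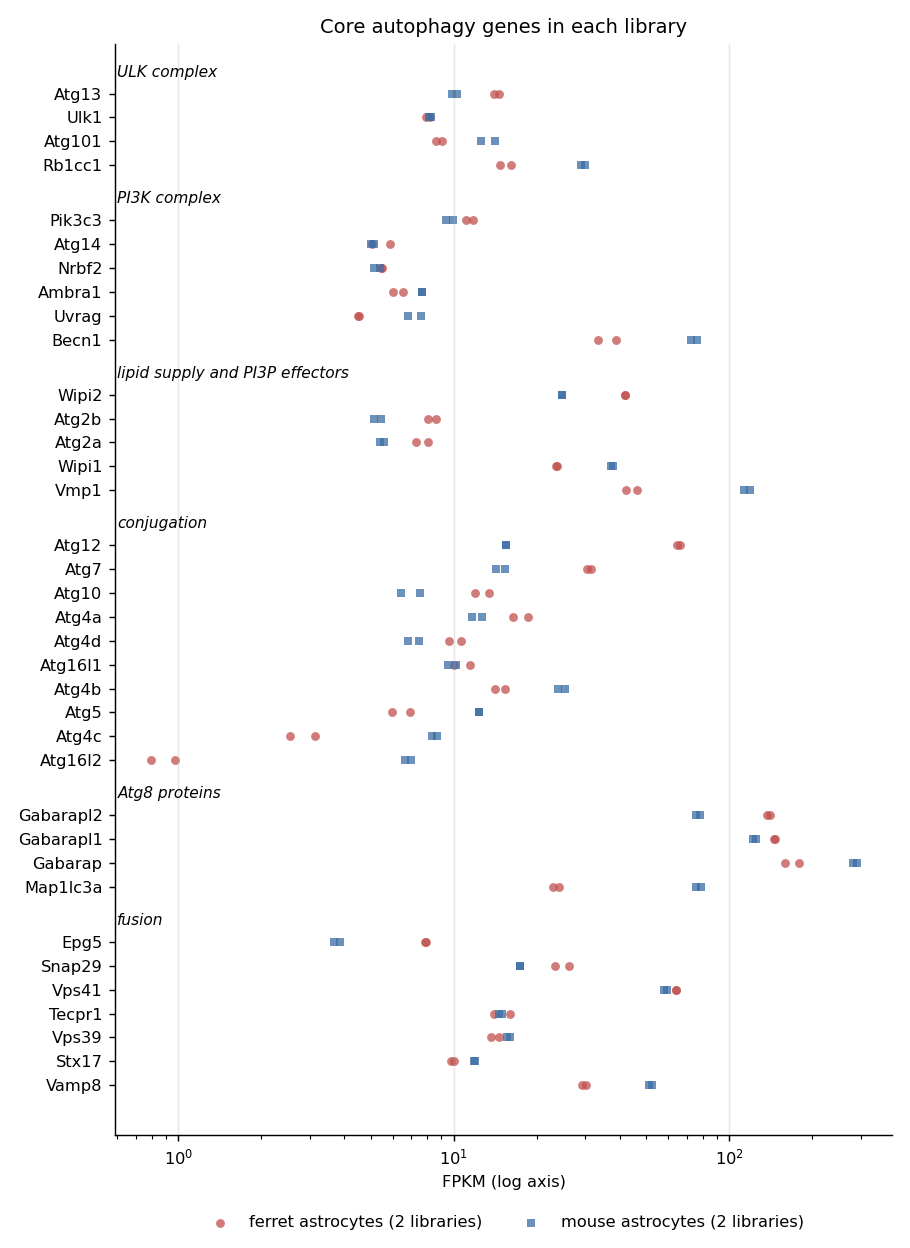
FPKM (log axis) of the 36 core autophagy genes in each of the 4 libraries, grouped by role; red circles are the 2 ferret and blue squares the 2 mouse libraries. Gabarap is the highest gene in both species, and Atg16l2, at 0.791 and 0.969 FPKM, is the lowest in ferret astrocytes.

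The order of the genes by level was similar in both species. Across the 36 genes Spearman's rho between the mean FPKM of ferret and of mouse was 0.86, and over all 10204 genes tested it was 0.68. These are descriptions across genes that share libraries and gene models, not replicates. Gabarap stood first and Gabarapl1 second in both species. The sum of the 36 genes was 1037 and 1075 FPKM in the ferret and 1208 and 1220.1 FPKM in the mouse libraries. As a share of the shared symbols' sum it was 0.456% and 0.454% in ferret and 0.402% and 0.396% in mouse libraries. The FPKM sum was thus lower, and the share higher, in both ferret libraries. Such a share is itself a scaling between the species, like the rescaling above, and rests on the gene model lengths of each species. The 4 ATG8 genes made up 44.9% and 45.5% of the core sum in ferret and 45.8% and 46.9% in mouse libraries.

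**Figure D2:**
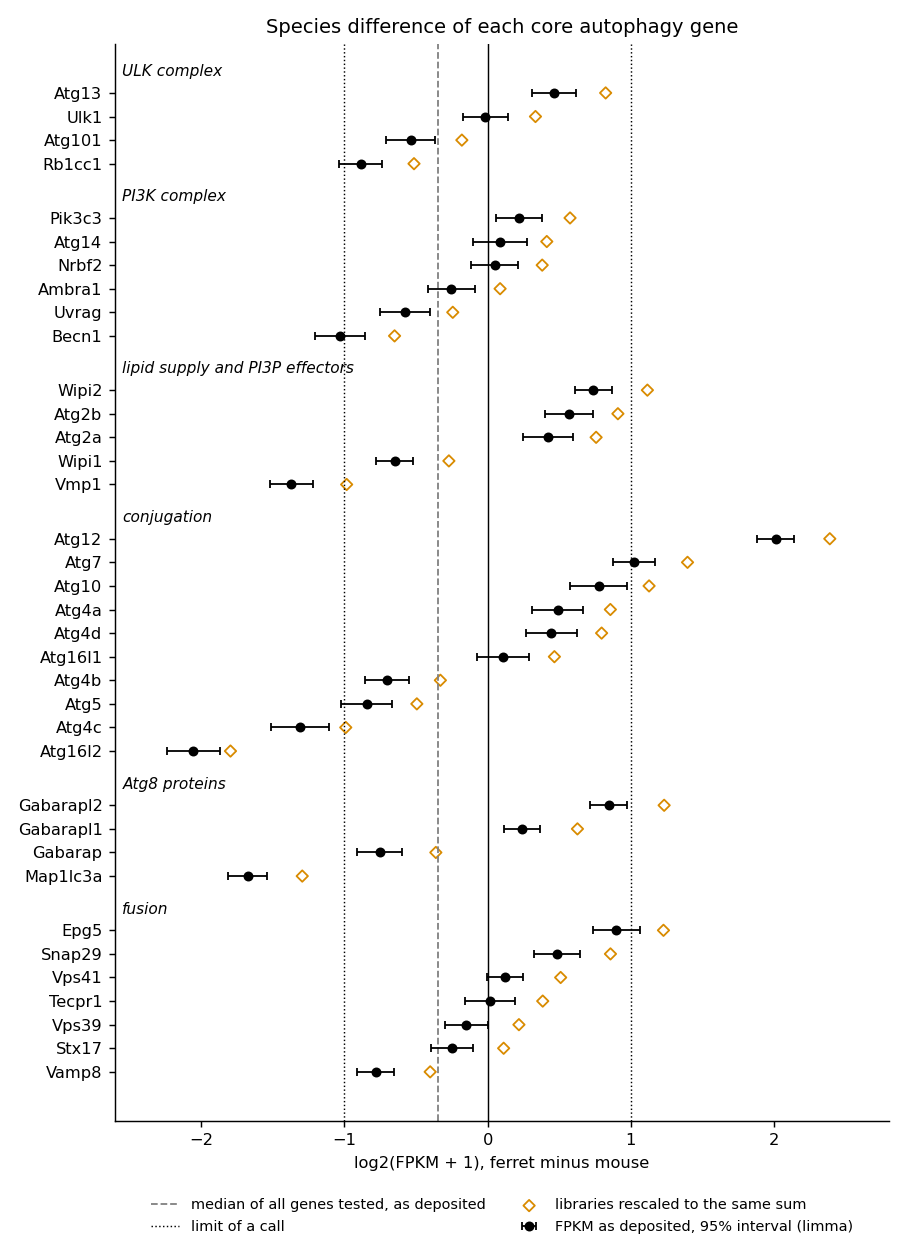
Log2(FPKM + 1) difference, ferret minus mouse, of each core gene with its 95% interval from limma (black), and the difference with the libraries rescaled to the same sum (open diamonds); dotted lines mark the limit of a call at 1 and the dashed line the median of all genes tested. Atg12 at 2.01 and Atg16l2 at -2.05 are the extremes, and the diamonds lie to the right of the black points.

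**Figure D3:**
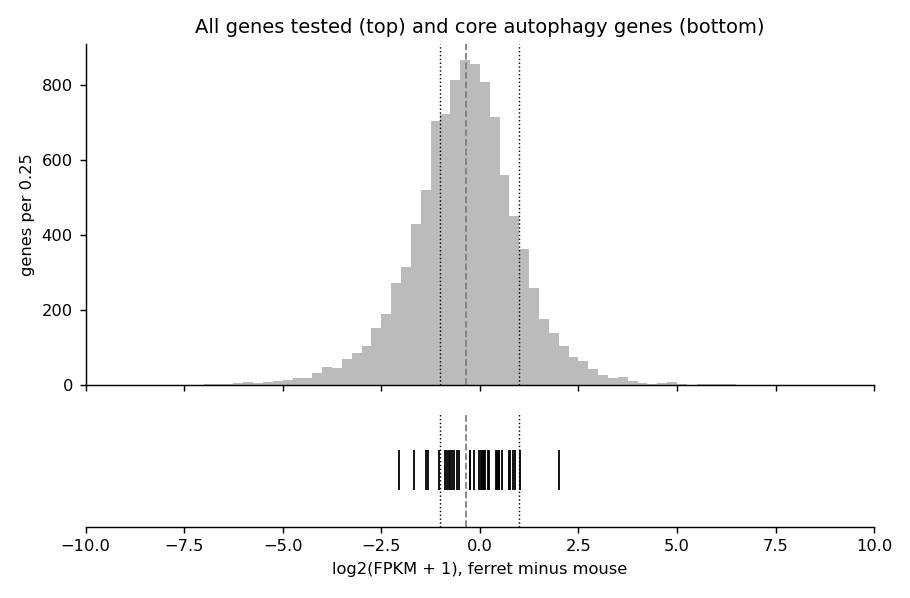
Number of genes per 0.25 of log2(FPKM + 1) difference, ferret minus mouse, for the 10204 genes tested (top), and each of the 36 core genes as a tick (bottom); dotted lines mark 1 in each direction and the dashed line the median of all genes tested at -0.35. Most core genes lie between the dotted lines, and 7 lie outside.

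The ULK complex receives the starting signal, and none of its 4 genes in both species was called. In the background of all genes tested, 13.1% were called higher and 30.1% lower. Ulk1, the kinase, had 7.93 and 8.20 FPKM in the ferret and 8.22 and 8.09 FPKM in the mouse libraries, which overlapped. Its log2 difference was -0.01 (95% interval -0.17 to 0.14, adjusted p = 0.842 by limma), and with the rescaled libraries 0.33 (adjusted p = 0.0016). Ulk2, its paralogue, had 23.9 and 25.8 FPKM in the mouse libraries, above mouse Ulk1. Atg13, the adaptor that links the kinase to its scaffold, had 13.9 and 14.6 FPKM in ferret against 9.85 and 10.3 FPKM in mouse libraries, and was higher in ferret by the adjusted p alone (log2 difference 0.46). The scaffold Rb1cc1 (FIP200), at 16.2 and 14.7 against 29.9 and 28.8 FPKM, and Atg101, which stabilizes Atg13, at 8.64 and 9.06 against 14.1 and 12.6 FPKM, were lower in ferret by the adjusted p alone, by log2 differences of -0.89 and -0.54. So within this complex, as deposited, Atg13 stood on the ferret side and its partners Rb1cc1 and Atg101 on the mouse side. The rescaled differences were 0.82, -0.51 and -0.18, and that of Atg101 did not pass the test (adjusted p = 0.0593 by limma).

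The class III PI3-kinase complex makes PI3P, and of its 6 genes in both species Becn1 alone was called. The background was 13.1% called higher and 30.1% lower. Becn1, which encodes the scaffold Beclin 1, had 33.2 and 38.9 FPKM in the ferret and 76.3 and 72.85 FPKM in the mouse libraries. Both ferret libraries were below both mouse libraries, by a difference of -1.03 log2 units (SE 0.077, limma adjusted p = 6.35e-07). This value is close to the limit of 1: it was -0.65 after rescaling and -0.92 without ferret replicate 1, and the gene was called in neither. Mouse Becn1 lies at chr11:101285952-101302286 of GRCm38 on the minus strand, and 43.9% of its exonic bases overlap Cntd1 on the other strand, which had 0.271 and 0.143 FPKM in the mouse libraries.

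The catalytic subunit Pik3c3 (VPS34) had 11.8 and 11.0 FPKM in ferret against 9.93 and 9.39 FPKM in mouse libraries, a log2 difference of 0.22 that passed the adjusted p alone. The ratio of Becn1 to Pik3c3 within a library was 2.82 and 3.52 in ferret and 7.69 and 7.76 in mouse libraries, without overlap. That ratio, and the other ratios between partner genes given below, were chosen after the values were seen. With 2 libraries a side the smallest two-sided p of an exact permutation test is 0.333. This was its value for every ratio and family share given here. These ratios and shares also rest on gene model lengths, and ferret lengths were not used here. The accessory genes of the complex were low in both species. Atg14, which directs the kinase to autophagosome formation, had 5.84 and 5.03 against 4.997 and 5.12 FPKM, and Nrbf2, a partner of Atg14, had 5.44 and 5.50 against 5.12 and 5.38 FPKM. Neither passed the test as deposited (adjusted p = 0.358 and 0.520 by limma). After rescaling Atg14 and Nrbf2 stood at 0.41 and 0.38 and passed the adjusted p alone as higher in ferret (0.0042 and 0.0011 by limma). Uvrag, the alternative to Atg14 that acts in endosome and late autophagosome traffic, had 4.51 and 4.49 against 6.80 and 7.61 FPKM. Ambra1, a Beclin 1 regulator, had 6.02 and 6.51 FPKM in ferret against 7.66 FPKM in both mouse libraries. Uvrag and Ambra1 were lower in ferret by the adjusted p alone, with log2 differences of -0.58 and -0.25, and the rescaled difference of Ambra1 was 0.09 (adjusted p = 0.229 by limma). Mouse Pik3r4, the regulatory kinase subunit, had 10.1 and 10.8 FPKM.

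Lipid supply and the reading of PI3P form the next step, with 5 genes in both species. Vmp1 was called lower and no gene was called higher as deposited, against the background of 13.1% higher and 30.1% lower. Vmp1, a membrane protein of the endoplasmic reticulum that moves lipids between membrane leaflets, had 46.3 and 42.1 FPKM in the ferret and 118.8 and 112.5 FPKM in the mouse libraries. Ferret minus mouse came to -1.37 log2 units (SE 0.066, limma adjusted p = 2.38e-08), and -0.98 after rescaling, just inside the limit of 1, while quantile normalization gave -1.03 and a call. The mouse gene lies at chr11:86583865-86683836 of GRCm38 on the minus strand. Atg2a and Atg2b, which encode the bridge that carries lipids into the growing membrane, were both higher in ferret by the adjusted p alone. Atg2a had 7.25 and 8.08 against 5.56 and 5.39 FPKM and Atg2b 8.04 and 8.59 against 5.14 and 5.41 FPKM, with log2 differences of 0.42 and 0.57.

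The genes of the PI3P-binding WIPI proteins differed in opposite directions. Wipi2, which recruits the conjugation complex, had 41.7 FPKM in both ferret and 24.6 FPKM in both mouse libraries, a difference of 0.74 log2 units (SE 0.057, limma adjusted p = 8.50e-07) that became 1.12 after rescaling and was then called. Wipi1 had 23.4 and 23.8 against 37.2 and 37.9 FPKM, a log2 difference of -0.65. Wipi1 was thus the higher of the pair in mouse and the lower in ferret libraries. Mouse Atg9a, the scramblase of the vesicles that seed the membrane, had 12.7 and 14.0 FPKM, and mouse Wdr45 (WIPI4) had 17.8 and 15.2 FPKM.

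Conjugation, the step with the most members, had 2 genes called higher and 2 lower among the 10 in both species, against the background of 13.1% and 30.1%. Atg12, the ubiquitin-like protein that is joined to ATG5, had 64.7 and 66.0 FPKM in the ferret and 15.5 and 15.4 FPKM in the mouse libraries. The mean was 4.23 times as high in ferret, a difference of 2.01 log2 units (SE 0.058, limma adjusted p = 6.71e-10), and 2.39 after rescaling. Among all genes tested its mean level lay at percentile 93.6 in ferret and 60.1 in mouse libraries. The mouse gene model, on chromosome 18 of GRCm38, holds 7711 exonic bases of which 423 are coding, so that 94.5% of its length is noncoding, the largest share among the core genes. FPKM divides by model length, and ferret model lengths were not used here. Of 235 genes tested with at least 90% of the mouse exonic length noncoding, 18.3% were called higher and 29.4% lower, with a median log2 difference of -0.44. The part of the gene model in the Atg12 difference was not tested.

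Atg7, the activating enzyme that serves both conjugation systems, had 30.5 and 31.4 FPKM in ferret against 15.3 and 14.2 FPKM in mouse libraries. Its log2 difference of 1.02 (SE 0.065, limma adjusted p = 1.78e-07) was just past the limit, and was 0.97 without mouse replicate 2, where it was not called. After rescaling it was 1.40. Mouse Atg7 lies at chr6:114643097-114860614 of GRCm38 on the plus strand. Atg10, which transfers ATG12 to ATG5, had 13.4 and 11.9 against 7.53 and 6.44 FPKM, a difference of 0.77 log2 units (limma adjusted p = 1.73e-05) and 1.13 after rescaling, when it was called. Atg7, Atg10 and Atg12, which act in sequence to attach ATG12, thus all stood higher in both ferret libraries. Of all genes tested, 35.1% had both ferret libraries above both mouse libraries.

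Atg5, the acceptor of ATG12, stood on the other side, with 6.92 and 5.98 FPKM in ferret against 12.3 and 12.4 FPKM in mouse libraries. Its log2 difference of -0.84 (SE 0.079, limma adjusted p = 3.68e-06) passed the adjusted p alone, and was -0.49 after rescaling. The ratio of Atg12 to Atg5 was 9.36 and 11.0 in ferret and 1.26 and 1.24 in mouse libraries. Mouse Atg3, which transfers the ATG8 proteins to lipid, had 32.3 and 33.5 FPKM.

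ATG16L1 brings the ATG12 and ATG5 conjugate to the membrane, and its paralogue ATG16L2 is a related protein whose role in autophagosome formation is less established. Atg16l1 had 9.99 and 11.4 FPKM in the ferret and 10.2 and 9.51 FPKM in the mouse libraries, which overlapped (log2 difference 0.11, 95% interval -0.07 to 0.29, adjusted p = 0.220 by limma). After rescaling the Atg16l1 difference was 0.47 and passed the adjusted p alone (0.0008 by limma). Atg16l2 had 0.791 and 0.969 FPKM in the ferret and 6.64 and 6.96 FPKM in the mouse libraries. It was called lower in ferret, with a difference of -2.05 log2 units (SE 0.082, limma adjusted p = 6.02e-09) and -1.80 after rescaling. The mouse gene lies at chr7:101263034-101302251 of GRCm38 on the minus strand. Atg16l1 accounted for 92.7% and 92.2% of the FPKM of the pair in ferret and for 60.5% and 57.8% in mouse libraries. Atg16l2 ranked last of the 36 genes in ferret and at position 31 in mouse libraries.

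The ATG4 proteases trim the ATG8 proteins before they are attached and later cut them off the membrane, and their mRNAs divided by paralogue. Atg4a had 16.4 and 18.6 FPKM in ferret against 11.7 and 12.6 FPKM in mouse libraries, and Atg4d had 9.57 and 10.6 against 6.81 and 7.44 FPKM. Both were higher in ferret by the adjusted p alone, with log2 differences of 0.49 and 0.45. Atg4b, at 14.1 and 15.4 against 23.8 and 25.4 FPKM, was lower by the adjusted p alone, with a log2 difference of -0.70. Atg4c, at 3.14 and 2.54 against 8.68 and 8.30 FPKM, was called lower, with a difference of -1.31 log2 units (SE 0.090, limma adjusted p = 3.19e-07), which was -0.99 after rescaling and then not called. Mouse Atg4c lies at chr4:99193934-99259787 of GRCm38 on the plus strand.

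Atg4b held 46.8% and 47.2% of the family's FPKM in mouse and 32.7% and 32.6% in ferret libraries. Atg4a held 37.9% and 39.5% in ferret and 22.9% and 23.5% in mouse libraries. By FPKM the leading protease gene was thus Atg4a in both ferret and Atg4b in both mouse libraries. Of the 50-base words of the mouse Atg4a transcript, 63.6% also occur in the annotated pseudogene Atg4a-ps, which had 1.21 and 1.08 FPKM. How the authors' counting divided such reads is not given in the sources used here, so the mouse level of Atg4a is uncertain to that extent. The same holds for Nrbf2, of whose words 69.4% occur in Gm6740, a gene model with 1.38 and 1.45 FPKM in the mouse libraries.

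The ATG8 proteins are the most abundant part of the machinery at the RNA level, and their mix differed between the species. All are made as precursors that ATG4 cuts after a glycine near the end, and only the cut form can be joined to lipid. The last 30 coding bases of the 4 mouse genes are shown because they carry this shared site, with the glycine codon in capitals, followed by 1 more codon and the stop codon in each gene.
Map1lc3a: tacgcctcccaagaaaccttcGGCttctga
Gabarap: tacagtgatgaaagcgtctatGGTctgtga
Gabarapl1: tacagtgatgaaagtgtctatGGAaaatga
Gabarapl2: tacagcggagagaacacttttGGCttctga
They were read from GENCODE M21 transcripts on GRCm38, all on the plus strand and each within one exon, at chr2:155277608-155277637, chr11:69994495-69994524, chr6:129541138-129541167 and chr8:111952376-111952405 in this order. Identity of the aligned coding sequences was 74.9% between Gabarap and Gabarapl1, between 61.9% and 63.8% for each of them with Gabarapl2, and between 51.4% and 55.1% for Map1lc3a with the other genes. No coding word of 50 bases was shared by any pair.

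Map1lc3a, which encodes LC3A, had 24.04 and 22.9 FPKM in the ferret and 75.4 and 79.0 FPKM in the mouse libraries. It was called lower in ferret, with a difference of -1.68 log2 units (SE 0.060, limma adjusted p = 3.07e-09) and -1.29 after rescaling, when it was still called. Gabarap, the founding member of its subfamily, had 159.4 and 179.5 FPKM in ferret against 280.1 and 290.9 FPKM in mouse libraries, lower in ferret by the adjusted p alone (log2 difference -0.75). Gabarapl1 had 144.9 and 145.9 against 121.5 and 124.7 FPKM, a log2 difference of 0.24. Gabarapl2 (GATE-16) had 137.2 and 140.65 against 75.8 and 78.1 FPKM, a difference of 0.84 log2 units (SE 0.056, limma adjusted p = 2.61e-07) that was 1.23, and called, after rescaling. Map1lc3a and Gabarap were thus below, and Gabarapl1 and Gabarapl2 above, the mouse libraries in both ferret libraries.

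Within the family the shares do not depend on scaling between the species, but they do rest on the gene model lengths of each species. Ferret model lengths were not used here. They are shares of 4 genes, since 1 of the 5 listed ATG8 genes was not analysed here, and would be smaller with it. Gabarap made up 34.2% and 36.7% of the FPKM of the 4 genes in ferret and 50.7% and 50.8% in mouse libraries. Gabarapl2 made up 29.5% and 28.8% in ferret and 13.7% and 13.6% in mouse libraries, and Map1lc3a 5.16% and 4.69% against 13.6% and 13.8%. Gabarapl1 made up 31.1% and 29.8% in ferret and 21.98% and 21.8% in mouse libraries. Of these 4 genes, the 3 GABARAP genes thus had shares closer to each other in ferret than in mouse libraries. Mouse Gabarapl2 shares 17.0% of its 50-base words with other gene models, among them Gm3724 at 4.90 and 4.79 FPKM, and 28.3% of the exonic bases of mouse Gabarapl1 overlap 1700101I11Rik on the other strand, at 0.552 and 0.261 FPKM.

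**Figure D4:**
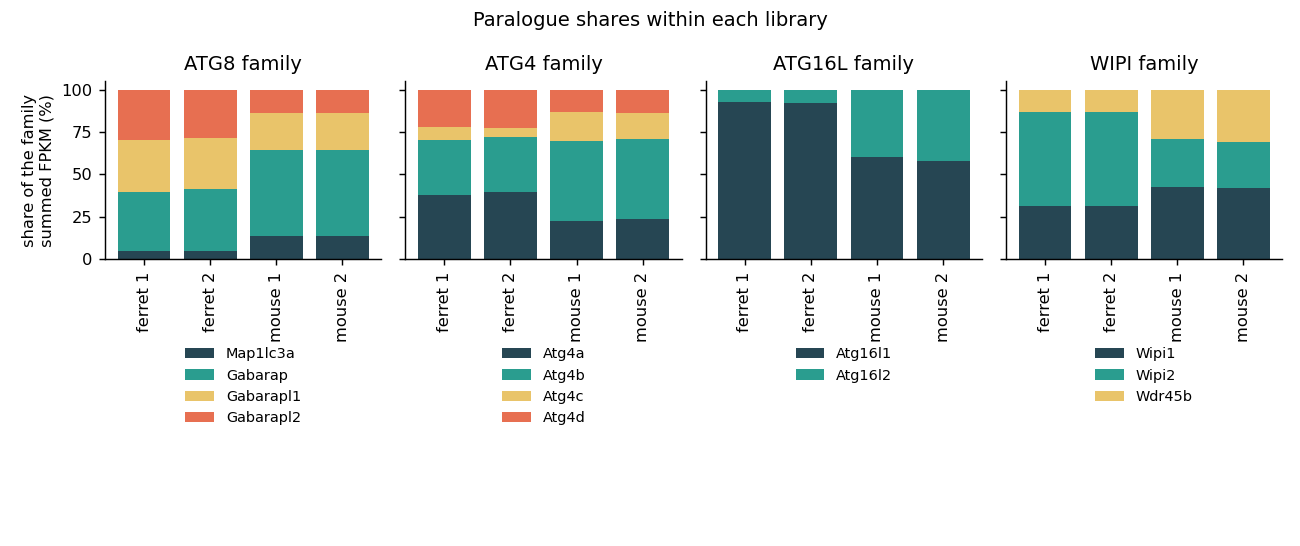
Share (%) of each paralogue in the summed FPKM of its family, as stacked bars from 0 to 100 for each of the 4 libraries, over the family members with a value in both species. Duplicates look alike within each species, while Gabarap takes 50.7% and 50.8% of the ATG8 bar in mouse against 34.2% and 36.7% in ferret libraries, and Atg16l2 39.5% and 42.2% against 7.34% and 7.81%.

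In the WIPI family the order of the genes differed between the species. Over Wipi1, Wipi2 and Wdr45b (WIPI3), Wipi2 made up 55.5% and 55.3% in ferret and 28.2% and 27.3% in mouse libraries, and Wipi1 31.2% and 31.5% against 42.6% and 41.96%. Atg2a and Atg2b were close to equal in both species, with Atg2a at 47.4% and 48.5% in ferret and at 52.0% and 49.9% in mouse libraries.

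Fusion with the lysosome had no called gene among its 7 as deposited, like the ULK complex. Of all genes tested, 13.1% were called higher and 30.1% lower. The SNARE proteins that drive fusion are Stx17 on the autophagosome, Snap29 in the cytosol and Vamp8 on the lysosome. Stx17 had 9.73 and 9.96 FPKM in ferret against 11.8 and 11.9 FPKM in mouse libraries (log2 difference -0.25, and 0.11 after rescaling). Snap29 had 23.2 and 26.3 against 17.3 and 17.4 FPKM (0.48), and Vamp8 had 29.2 and 30.3 against 51.2 and 52.5 FPKM (-0.78). These 3 genes passed the adjusted p alone as deposited, 1 as higher and 2 as lower in ferret. The HOPS tether subunits Vps39 and Vps41 stood close in both species as deposited. Vps39 had 13.7 and 14.6 against 16.0 and 15.6 FPKM and Vps41 63.9 FPKM in both ferret libraries against 57.9 and 59.2 FPKM, and neither passed the test as deposited (adjusted p = 0.0564 and 0.0581 by limma). After rescaling Vps39 and Vps41 stood at 0.22 and 0.51 and passed the adjusted p alone as higher in ferret (0.0083 and 2.59e-05 by limma). Tecpr1, another tether, had 13.9 and 16.0 against 14.6 and 14.9 FPKM, with overlapping libraries (log2 difference 0.02, 95% interval -0.15 to 0.19). After rescaling the Tecpr1 difference was 0.38 and passed the adjusted p alone (0.0010 by limma).

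Epg5, which encodes a large tether on late endosomes and lysosomes, differed most among the fusion genes, ahead of Vamp8. It had 7.83 and 7.91 FPKM in the ferret and 3.85 and 3.67 FPKM in the mouse libraries, a difference of 0.90 log2 units (SE 0.072, limma adjusted p = 1.09e-06). It was 1.23 after rescaling and called. On the log2(FPKM + 0.1) scale, where low genes are less compressed, Epg5 was called as well. It ranked last of the 36 genes in mouse and at position 28 in ferret libraries.

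Gene models were described from the mouse side alone, and overlap and shared sequence were examined for core genes but not for the regulators below. Across the 36 genes Spearman's rho between the noncoding share of mouse exonic length and the log2 difference was -0.11, or -0.21 without Atg12, and across 10107 genes tested with a length it was -0.03. With mouse exonic length itself, rho was 0.15 across the 36 genes and 0.03 across the 10107. These are descriptions across genes, and the ratio of ferret to mouse model length, on which a comparison of FPKM depends, was not examined.

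Genes that control or assist the core machinery were listed as 40 names, of which 32 had values in both species and were tested. Of these, 2 were called higher and 9 lower in ferret astrocytes, 6.25% and 28.1%, against the background of 13.1% and 30.1% of all genes tested. By the adjusted p alone 10 were higher, 21 lower and 1 did not pass, near the background of 32.4% higher and 56.2% lower. After rescaling 6 were called higher and 6 lower, near the rescaled background of 19.3% and 21.7%. Their median log2 difference was -0.66, and -0.34 after rescaling.

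Both genes called higher encode subunits of AMPK, the energy sensor that activates ULK1. Prkab2, the beta 2 subunit, had 36.6 and 35.7 FPKM in the ferret and 6.39 and 6.92 FPKM in the mouse libraries, a difference of 2.28 log2 units (limma adjusted p = 7.36e-10). Prkaa1, the alpha 1 catalytic subunit, had 38.8 and 39.8 against 11.6 and 11.7 FPKM, a log2 difference of 1.67 (adjusted p = 3.00e-09). Prkag2, the gamma 2 subunit, was called lower as deposited, with 26.2 and 25.9 against 62.4 and 62.6 FPKM (-1.23), and was not called after rescaling (-0.85) or quantile normalization (-0.87). The AMPK genes therefore did not share one direction: of the 6 tested, Prkaa1, Prkab1 and Prkab2 were higher and Prkaa2, Prkag1 and Prkag2 lower in ferret by the adjusted p as deposited. After rescaling Prkag1 stood at 0.01, and Prkab1, at 0.75 as deposited, was called higher at 1.12.

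On the mTORC1 side, which restrains autophagy, Rheb, its direct activator, had 18.5 and 16.7 FPKM in ferret against 75.6 and 75.4 FPKM in mouse libraries (-2.04, adjusted p = 1.37e-09 by limma). Tsc2, the brake on Rheb, was also called lower, with 5.02 and 5.54 against 17.9 and 16.5 FPKM (-1.53), whereas its partner Tsc1 had 8.13 and 9.03 against 4.67 and 4.58 FPKM (0.77, and 1.10 with a call after rescaling). Mtor, Rptor and Mlst8, the subunits of the complex, were each higher in ferret by the adjusted p alone, with log2 differences of 0.68, 0.53 and 0.41. After rescaling Mtor, at 1.04, was called higher.

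Of the transcription factors of lysosome and autophagy genes, Tfeb was called lower, with 1.45 and 1.81 FPKM in the ferret and 7.27 and 6.90 FPKM in the mouse libraries (-1.62, adjusted p = 5.65e-08 by limma). Tfec was called lower as well, at 0.048 and 0.028 against 1.67 and 1.45 FPKM, and is known for expression in macrophages. Tfe3, the most abundant of its family in both species, had 17.2 and 18.4 against 20.5 and 20.6 FPKM (-0.20, and 0.17 after rescaling), and Foxo3 had 21.0 and 22.3 against 19.1 and 19.7 FPKM (0.15).

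Of the 10 partner genes of initiation and membrane supply tested, 4 were called lower and no gene higher in ferret cultures. The background was 30.1% called lower and 13.1% higher. The 4 genes included Rubcn and Bcl2, which encode inhibitors of the Beclin 1 complex. Rubcn (Rubicon), which restrains the UVRAG form of the complex, had 2.14 and 2.34 FPKM in the ferret and 24.7 and 25.5 FPKM in the mouse libraries, a difference of -3.01 log2 units (SE 0.072, limma adjusted p = 2.15e-10) and -2.69 after rescaling. Bcl2, which binds Beclin 1 and is best known as an inhibitor of apoptosis, had 0.939 and 1.10 against 5.10 and 5.08 FPKM (-1.59). Tmem41b, a scramblase that acts with VMP1, had 14.9 and 12.3 against 35.4 and 35.7 FPKM (-1.33), and Wdr45b had 10.0 and 9.94 against 25.6 and 27.8 FPKM (-1.33, and -0.97 without a call after rescaling). Vmp1 and Tmem41b, which share a function in lipid scrambling, were thus both called lower as deposited, and after rescaling neither was, at -0.98 and -0.95, while after quantile normalization Vmp1 was. The tethering partners Vps11, Vps16, Vps18 and Plekhm1 had no called gene, against the background of 13.1% called higher and 30.1% lower. Their differences ran from -0.82 to -0.11.

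**Figure D5:**
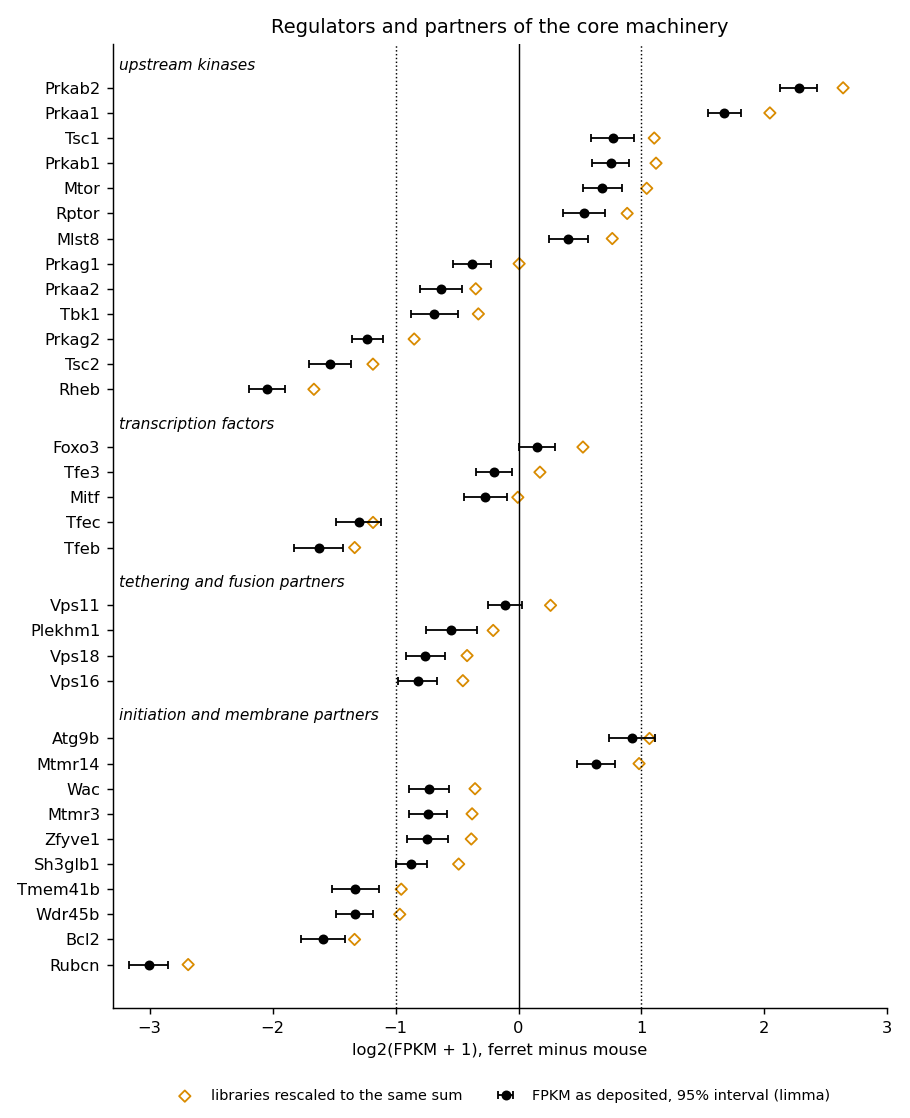
Log2(FPKM + 1) difference, ferret minus mouse, of the 32 regulators and partners with a 95% interval from limma (black), and with the libraries rescaled to the same sum (open diamonds); dotted lines mark 1 in each direction. Prkab2 at 2.28 is the highest and Rubcn at -3.01 the lowest.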

How the data were processed

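RNA-seq of cultured astrocytes, with 2 ferret and 2 mouse libraries, was analysed from 1 FPKM per gene and library. The authors aligned reads with STAR (2.7.0f) to the Ensembl genome of each species and deposited FPKM from Cufflinks (2.2.1), scaled to mapped fragments and exon length. The FPKM tables hold no counts, read counts were not used here, and precision rests on 2 libraries per species. Symbols were matched without regard to case, and the highest value was used where a symbol had several. Log2(FPKM + 1) was fitted with limma (3.58.1, R 4.3.3) with species as the factor, trended empirical Bayes and Benjamini-Hochberg adjustment over the 10204 genes whose mean reached 1 FPKM in either species. The fit was tested on simulated data. Family shares were tested with exact permutation tests. Mouse positions, lengths and sequences come from GENCODE M21 on GRCm38, the authors' build in another annotation release. Every core gene in both species was named, and of the regulators those called, and other regulators were named after their values were seen. The members, gene lists and alternatives were chosen with earlier results of these data known. Marker lists covered astrocytes, microglia, fibroblasts, oligodendrocyte lineage and neurons.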

Additional observations from a re-analysis of the deposited data

How the results depend on the processing

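Scaling between the species decided most changes. With the libraries rescaled to the same sum the median of all genes moved by 0.35 on the log2 scale, 6 core genes were called higher and 2 lower, the median of the core genes was 0.38, and 6 regulators were called higher. After quantile normalization, which moved the median of all genes by 0.43, 6 core genes were called higher and 3 lower, the core median was 0.43, and 7 regulators were called higher. The background was 19.3% called higher and 21.7% lower after rescaling, and 20.6% and 20.4% after quantile normalization. Taking each difference relative to the median of all genes, an alternative chosen after seeing the data, gave 6 core genes higher and 3 lower. There 1975 of the 10204 genes tested were called higher and 2144 lower. Among genes not called, the log2 difference turned positive after rescaling and after quantile normalization for Ulk1 (0.33 and 0.41), Ambra1 (0.087 and 0.16), Stx17 (0.11 and 0.17) and Vps39 (0.22 and 0.25). Leaving out each library in turn, which assumes that a lone library varies like the others, gave 1 to 2 core genes called higher and 4 to 5 lower, 26 to 30 passing the adjusted p alone and a core median from -0.01 to 0.05. Atg7 lost its call without mouse replicate 2, and Becn1 without ferret replicate 1. Of genes near 0, Ulk1 ranged from -0.036 to 0.0064, Atg14 from -0.0072 to 0.17 and Tecpr1 from -0.076 to 0.11. Leaving low values unfiltered, a pseudocount of 0.1, summed values of a symbol, limma without the trend and the replicate block kept every called core gene, and the pseudocount added Epg5. The replicate block, with the replicate number shared by both species as a term, gave 2 core genes higher and 5 lower. With it 1342 of the 10204 genes tested were called higher and 3072 lower. By the adjusted p alone 30 core genes passed. The numbers come from the labels only and pair no animals, and the correlation of duplicate differences between the species was 0.01. The number of libraries, and FPKM used without read counts, limit what a low gene such as Atg16l2 can show.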
